A study of Homo sapiens with 12 samples.

Results

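The genes described here encode the heat shock chaperones of the cytosol and of mitochondria together with their cochaperones and the factor HSF1. A list of 42 symbols was searched among the array's probe sets, and 38 of them were listed alone on at least 1 probe set, out of 19775 genes measured. A gene is represented by its brightest probe set, averaged across all arrays. Probe sets naming HSPA8 also name other genes, and HSF2, AHSA1 and HSPB11 were not found under those symbols, so these 4 were not analysed here. The other 38 comprised HSF1, 7 genes of the HSP70 and HSP110 family, the HSP60 and HSP10 pair, 3 HSP90 genes, 7 HSP40 genes, 3 small heat shock protein genes, 5 BAG genes, 9 further cochaperone genes and SERPINH1.

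Chaperones of the HSP70 family hold unfolded stretches of protein in a cycle driven by ATP, which J proteins (the HSP40 family) start and exchange factors (HSP110 and BAG proteins) end. HSP90 takes partly folded kinases, receptors and transcription factors from HSP70 with the help of cochaperones, and HSP60 with HSP10 folds proteins inside a closed chamber in mitochondria. When unfolded protein accumulates, HSF1 binds heat shock elements, repeats of GAA in alternating orientation, and drives transcription of the inducible members.

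The arrays came from U937, an established human myeloid leukemia line. There were 4 groups of 3 biological replicates: cells given DMSO as the vehicle, and cells given JS-K, a nitric oxide donor that glutathione activates, for 90 min, 4 h or 24 h. Neither the JS-K dose nor the length of vehicle exposure is given in the labels, so time in culture and JS-K cannot be told apart. Values are levels on the log2 scale of the authors' GCRMA signal, differences are log2 differences ± SE of the fit (n = 3 and 3 arrays), and a gene was called at a limma adjusted p under 0.05.

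Facts of the arrays bear on all that follows. Myeloid markers LYZ, CD4, ITGAM, CSF3R and SPI1 lay above 4 on every array, while MPO (2.34 to 2.51) did not. Of 11 measured markers of lymphoid, erythroid, epithelial and fibroblast cells, COL1A1 (4.74 to 5.80) alone lay above 4. The mean level of the 6 measured myeloid markers was 7.63 to 7.68 in vehicle, 7.64 to 7.77 at 90 min, 7.82 to 7.97 at 4 h and 8.11 to 8.27 at 24 h, and its part in the results was not tested. Levels under 4 are low signal, which applies to 61.4% to 62.1% of probe sets per array. Poly-A spikes, control transcripts added before labelling, averaged 3.04 in vehicle, 3.08 at 90 min, 7.02 at 4 h and 8.47 at 24 h. Hybridization spikes averaged 9.96, 10.03, 10.21 and 11.70 in the same order, and the ACTB 3′ minus 5′ signal, a sign of RNA quality, was 0.80, 0.83, 0.96 and 0.96. The part of these in the results was not tested, and spike handling and exposure time cannot be told apart at the later times. Array 2 of the 4 h group had the highest median (3.10, against 2.84 to 2.99 on the other arrays), and results that rest on it are given without it. All comparisons with vehicle share the same 3 vehicle arrays. In RNA from whole cultures, fewer cells of a kind and less RNA per cell cannot be told apart.

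**Figure D1:**
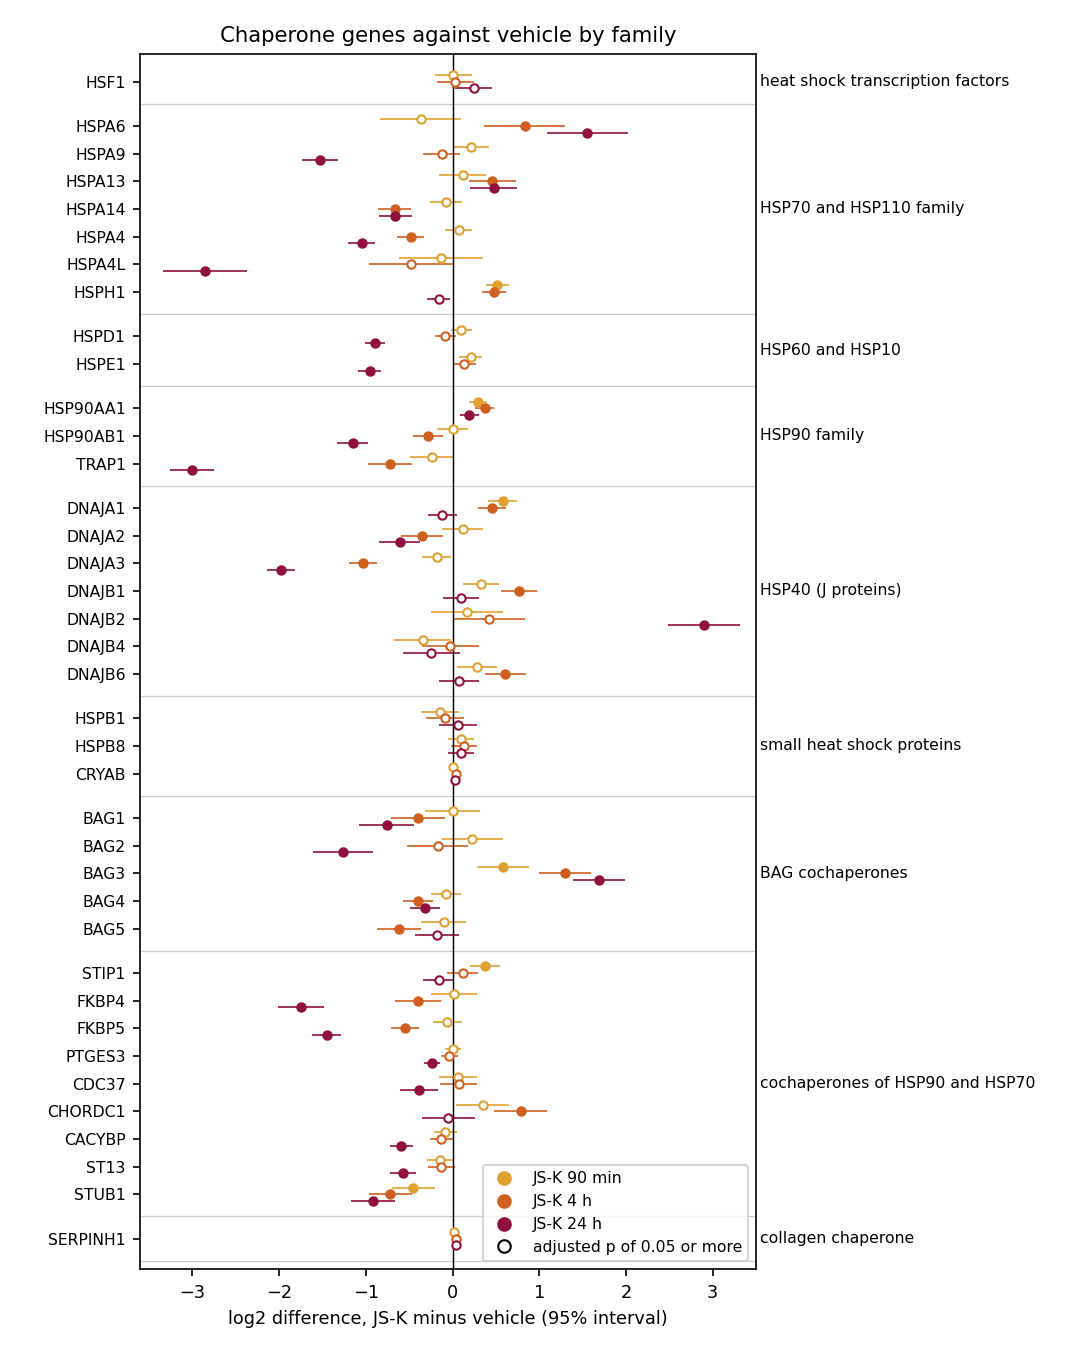
Log2 difference between JS-K and vehicle cells (horizontal axis) for each of the 38 measured chaperone genes, grouped by family, at 90 min, 4 h and 24 h (colours), with 95% intervals from the fit. Filled points passed an adjusted p under 0.05 and open points did not. At 24 h TRAP1, HSPA4L and DNAJA3 lie farthest to the left and DNAJB2, BAG3 and HSPA6 farthest to the right.

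At 90 min few of these genes differed between JS-K and vehicle cells. BAG3, DNAJA1, HSPH1, STIP1 and HSP90AA1 rose, and STUB1 fell. That is 5 of 38 higher (13.2%) and 1 lower (2.63%), where 4.03% of all genes tested were higher and 5.62% lower, and the median difference was 0.02 over the 38 and 0.01 over all genes. By 4 h 9 were higher and 12 lower (23.7% and 31.6%), where 23.9% of all genes were higher and 16.6% lower (medians −0.06 and 0.06). By 24 h 5 were higher and 20 lower (13.2% and 52.6%), where 17.8% and 18.9% of all genes were (medians −0.28 and 0.06). Of the 20, 9 fell at least 2-fold, as did 1402 of the 3735 lower genes among all genes. With a mean level of at least 4, 1342 of 3540 lower genes did.

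These genes are brighter than most, so the same counts were set beside genes with a mean level of at least 4, which 34 of the 38 reached. Among the 34, 14.7% were higher and 2.94% lower at 90 min, where 8.05% and 10.5% of 9551 such genes were. At 4 h 26.5% were higher and 35.3% lower, where 14.7% and 32.4% of such genes were. At 24 h 11.8% were higher and 58.8% lower, where 25.9% and 37.1% were. The share of lower genes at 4 h was thus near the background. Arrays of the 2 groups do not overlap for 26.9% of all genes at 90 min, 70.2% at 4 h and 82.3% at 24 h, so at the later times a lack of overlap is common.

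**Figure D2:**
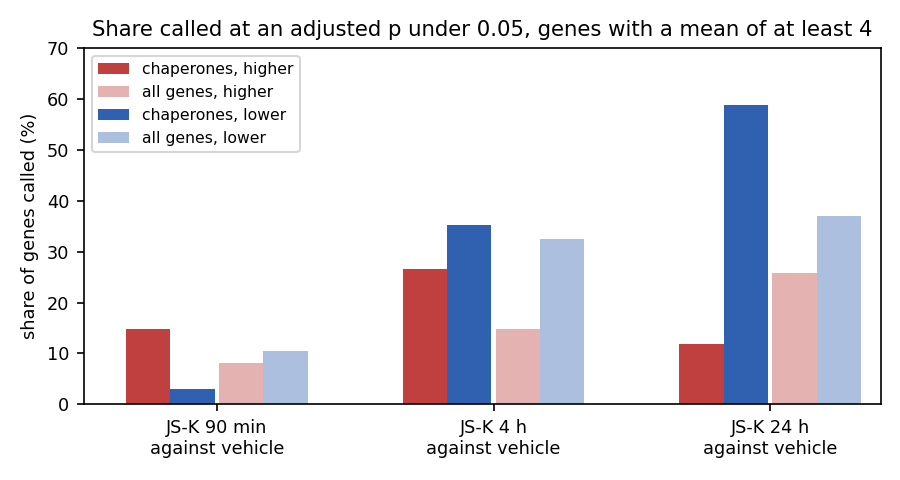
Share of genes (vertical axis, percent) called higher (red) and lower (blue) than in vehicle cells at each JS-K time, for the 34 chaperone genes with a mean level of at least 4 (dark) and all 9551 genes with such a mean (pale). The dark blue bar at 24 h stands at 58.8% beside a pale one of 37.1%.

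HSF1, the factor that drives the heat shock response, passed no test against vehicle. HSF1 read 7.05, 7.11 and 7.10 in vehicle, 7.11, 7.09 and 7.09 at 90 min, 7.24, 7.01 and 7.11 at 4 h and 7.22, 7.34 and 7.43 at 24 h. The 24 h arrays lay above the vehicle arrays, by 0.24 ± 0.10 (adjusted p = 0.0689). A second HSF1 probe set, at a mean level of 4.25, was not called in any comparison with vehicle either.

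In the HSP70 and HSP110 family some members rose and others fell. HSPA6 encodes an HSP70 of human cells that is made almost only under stress. HSPA6 read 5.38, 5.20 and 5.48 in vehicle, 4.98, 4.65 and 5.33 at 90 min, 6.55, 6.06 and 5.95 at 4 h and 7.02, 7.10 and 6.61 at 24 h. Its 90 min arrays overlapped with the vehicle arrays and reached lower (−0.37 ± 0.21, adjusted p = 0.458), those at 4 h lay above them and those at 24 h higher still. The difference was 0.83 ± 0.21 at 4 h (adjusted p = 0.0134) and 1.56 ± 0.21 at 24 h (adjusted p = 7.2e-05), a 2.94-fold higher signal at 24 h. The 4 h call ended without vehicle replicate 2 (adjusted p = 0.0506). A second HSPA6 probe set rose by 1.09 at 4 h and 1.67 at 24 h. At 90 min it gave 0.34 (adjusted p = 0.693), opposite in sign to the brightest. Its mean level of 4.48 is close to low signal, so the sizes of its differences are not exact. Cross-hybridization between HSPA6 and other near-identical HSP70 transcripts was not tested.

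HSPH1 is the inducible HSP110, an exchange factor for HSP70. HSPH1 read 10.24, 10.23 and 10.20 in vehicle, 10.73, 10.79 and 10.71 at 90 min, 10.77, 10.70 and 10.63 at 4 h and 10.07, 10.15 and 9.97 at 24 h. All 90 min and 4 h arrays lay above all vehicle arrays, and all 24 h arrays below them. The rise was 0.52 ± 0.06 at 90 min (adjusted p = 0.000207) and 0.48 ± 0.06 at 4 h (adjusted p = 0.00013), while 24 h gave −0.16 ± 0.06 (adjusted p = 0.0603). The 24 h cells differed from the 4 h cells by −0.64 ± 0.06 (adjusted p = 7.22e-06). The dimmer HSPH1 probe sets were both called lower than vehicle at 24 h (−0.49 and −1.18).

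Its relatives HSPA4 and HSPA4L, also of the HSP110 branch and the second of them abundant in testis, fell. HSPA4L read 7.18, 7.00 and 7.37 in vehicle, 7.18, 6.84 and 7.14 at 90 min, 6.82, 6.45 and 6.85 at 4 h and 4.66, 4.56 and 3.77 at 24 h. The 24 h arrays stand apart from the other 9, and 1 of them (3.77) lies under 4, so the size of the 24 h difference (−2.85 ± 0.22, adjusted p = 4.95e-07) is not exact. At 4 h HSPA4L gave −0.48 ± 0.22 (adjusted p = 0.0851). HSPA4 changed by −0.48 ± 0.07 at 4 h and −1.05 ± 0.07 at 24 h, both calls (adjusted p = 0.000361 and 1.55e-07), and its 4 probe sets all fell at 24 h. At 4 h its other 3 were not called (−0.17, −0.63 and −0.18).

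HSPA14, an HSP70 that works at the ribosome, fell, with −0.67 ± 0.09 at 4 h and −0.66 ± 0.09 at 24 h (adjusted p = 0.000128 and 4.66e-05). HSPA13, a microsomal relative of HSP70, rose by 0.46 ± 0.12 at 4 h and 0.47 ± 0.12 at 24 h (adjusted p = 0.0184 and 0.0091). Both HSPA13 calls ended with array medians subtracted (adjusted p = 0.0975 and 0.0577), and the 4 h call ended without vehicle replicate 2 (0.0639) or 3 (0.0690) or 4 h replicate 2 (0.0598).

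The 5 members of mitochondria, TRAP1, DNAJA3, HSPA9, HSPD1 and HSPE1, were all lower than vehicle at 24 h. TRAP1, the HSP90 of mitochondria, showed the largest fall of the 38 at 24 h. TRAP1 read 10.07, 10.16 and 10.17 in vehicle, 9.87, 9.90 and 9.93 at 90 min, 9.66, 9.11 and 9.48 at 4 h and 7.24, 7.12 and 7.03 at 24 h. Every 4 h array lay below every vehicle array, and every 24 h array lay below all the rest. The difference was −0.72 ± 0.12 at 4 h (adjusted p = 0.000679) and −3.01 ± 0.12 at 24 h (adjusted p = 1.53e-09), an 8.03-fold lower signal.

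DNAJA3, a J protein that serves HSP70 in mitochondria, had also fallen by 4 h. DNAJA3 read 10.05, 10.01 and 9.97 in vehicle, 9.81, 9.74 and 9.93 at 90 min, 9.01, 8.85 and 9.07 at 4 h and 8.06, 8.03 and 8.00 at 24 h. The 4 h arrays were already apart from those of vehicle and 90 min, and the 24 h arrays were lower again. The difference was −1.03 ± 0.08 at 4 h and −1.98 ± 0.08 at 24 h (adjusted p = 1.59e-06 and 1.53e-09), or 2.05-fold and 3.94-fold lower. Its second probe set gave −1.10 and −2.10.

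HSPA9, the HSP70 of the mitochondrial matrix, fell only in the 24 h comparison with vehicle (−1.53 ± 0.10, adjusted p = 7.61e-08), with 10.38, 10.26 and 10.35 at 24 h, against 11.97, 11.67 and 11.92 in vehicle. At 4 h it gave −0.13 ± 0.10 (adjusted p = 0.267). Unlike the brightest, the dimmer HSPA9 probe sets were called higher at 90 min (0.33 and 0.58) and 1 of them at 4 h (0.47), and all 3 with a mean of at least 4 were called lower at 24 h.

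HSPD1 and HSPE1 encode HSP60 and its lid HSP10. Their genes lie head to head on chromosome 2 of GRCh38.p14, HSPD1 at 197486584 to 197500274 on the minus strand and HSPE1 at 197500379 to 197503449 on the plus strand. Because the starts of both genes face one another across only 104 bases, that interval (chr2:197500275-197500378, plus strand) is shown from RefSeq. No heat shock element letters (GAANNTTC or TTCNNGAA) were found in it:
HSPD1-HSPE1 interval: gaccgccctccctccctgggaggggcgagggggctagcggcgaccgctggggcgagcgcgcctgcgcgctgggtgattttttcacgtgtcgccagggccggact

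HSPD1 read 14.20, 14.04 and 14.12 in vehicle, 14.25, 14.18 and 14.24 at 90 min, 14.06, 13.93 and 14.13 at 4 h and 13.21, 13.22 and 13.25 at 24 h. For its neighbour the pattern was close. HSPE1 read 12.89, 13.07 and 12.95 in vehicle, 13.17, 13.25 and 13.11 at 90 min, 13.16, 13.02 and 13.13 at 4 h and 11.99, 12.09 and 11.96 at 24 h. In both genes the 24 h arrays lay about 1 log2 unit below the 9 others, which overlapped in part. HSPD1 gave −0.89 ± 0.06 and HSPE1 −0.95 ± 0.06 at 24 h, both falls (adjusted p = 6.92e-08 and 8.82e-08). At 4 h they gave −0.08 ± 0.06 and 0.13 ± 0.06 (adjusted p = 0.22 and 0.0812), and at 90 min 0.10 ± 0.06 and 0.21 ± 0.06 (adjusted p = 0.393 and 0.0519). With TRAP1, HSPA9 and DNAJA3 this makes 0 of 5 mitochondrial members lower at 90 min, 2 of 5 at 4 h and 5 of 5 at 24 h, with median differences of 0.10, −0.13 and −1.53. Among genes with a mean level of at least 4 the lower shares were 10.5%, 32.4% and 37.1% at these times, so the 4 h count is near the background. A dimmer HSPD1 probe set, at a mean level of 6.63, was called higher at 90 min (0.64, adjusted p = 0.00909). The remaining HSPD1 probe sets were not called at 90 min.

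**Figure D3:**
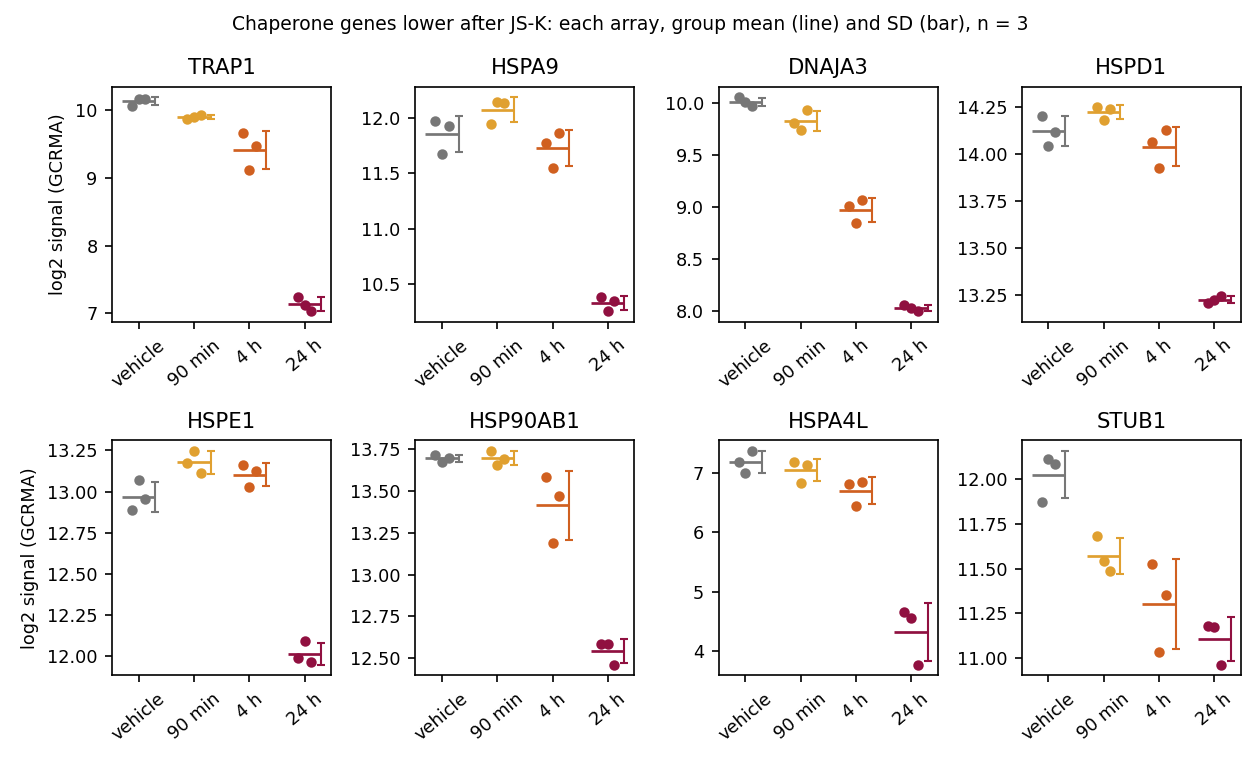
Log2 signal (vertical axis) on each of 3 arrays of the vehicle group and of each JS-K time, in 8 genes that were lower at 24 h, with group means (lines) and SD (bars). The vertical axes differ between genes and do not start at 0. The 24 h arrays of TRAP1 lie between 7.03 and 7.24, and those of vehicle between 10.07 and 10.17.

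The cytosolic HSP90 genes parted. HSP90AA1 encodes the inducible form, HSP90 alpha. HSP90AA1 read 13.73, 13.65 and 13.71 in vehicle, 13.91, 14.01 and 14.05 at 90 min, 14.04, 14.02 and 14.15 at 4 h and 13.90, 13.92 and 13.86 at 24 h. All 9 JS-K arrays lay above all 3 vehicle arrays. The rise was 0.29 ± 0.05 at 90 min, 0.37 ± 0.05 at 4 h and 0.19 ± 0.05 at 24 h (adjusted p = 0.00227, 0.000164 and 0.00724). With array medians subtracted the calls at 90 min (adjusted p = 0.0665) and 24 h (0.332, difference 0.10) ended. HSP90AB1 encodes the constitutive form, HSP90 beta. HSP90AB1 read 13.72, 13.68 and 13.70 in vehicle, 13.74, 13.66 and 13.69 at 90 min, 13.58, 13.19 and 13.47 at 4 h and 12.59, 12.59 and 12.46 at 24 h. Here vehicle and 90 min arrays overlapped, the 4 h arrays were lower and the 24 h arrays lower again. The difference was −0.28 ± 0.08 at 4 h (adjusted p = 0.0243) and −1.15 ± 0.08 at 24 h (adjusted p = 2.11e-07). The 4 h call ended when vehicle replicate 1, 2 or 3 was left out (adjusted p = 0.0701, 0.0510 and 0.0672), with the mean of its probe sets (0.0654) or with the 6 arrays alone (0.0885). All 3 HSP90AB1 probe sets were called lower at 24 h, and the other 2 were not called at 4 h (−0.13 and −0.01). The 4 for HSP90AA1 were all called higher at 90 min and 4 h, and at 24 h 3 were and the dimmest gave 0.24. Each gene's difference was tested on its own, and the contrast between the genes was not tested.

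Among the HSP40 genes, DNAJA1, DNAJB1 and DNAJB6 were higher than vehicle at 4 h and lower at 24 h than at 4 h. DNAJA1 and DNAJB1 encode the main J proteins of the cytosol. DNAJA1 read 11.51, 11.54 and 11.50 in vehicle, 12.18, 12.06 and 12.05 at 90 min, 12.08, 11.80 and 12.04 at 4 h and 11.49, 11.42 and 11.30 at 24 h. The 90 min and 4 h arrays lay above the rest, and the 24 h arrays just below those of vehicle. DNAJA1 rose by 0.58 ± 0.08 at 90 min and 0.45 ± 0.08 at 4 h (adjusted p = 0.000392 and 0.000827), and gave −0.12 ± 0.08 at 24 h (adjusted p = 0.195). Both of its probe sets were called higher at 90 min and 4 h.

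DNAJB1 read 9.07, 9.05 and 9.02 in vehicle, 9.41, 9.41 and 9.30 at 90 min, 9.98, 9.63 and 9.84 at 4 h and 9.25, 9.20 and 8.98 at 24 h. For DNAJB1 the 4 h arrays were the highest, and those at 24 h overlapped those of vehicle. It gave 0.33 ± 0.10 at 90 min (adjusted p = 0.0502, and 0.0426 with the replicate number as a block), rose by 0.77 ± 0.10 at 4 h (adjusted p = 9.51e-05) and gave 0.10 ± 0.10 at 24 h (adjusted p = 0.373). A second DNAJB1 probe set, at a mean level of 9.10, gave 0.09 at 90 min (adjusted p = 0.942) and was called higher at 4 h (0.55). DNAJB6, which keeps aggregation-prone proteins soluble, rose at 4 h (0.61 ± 0.11, adjusted p = 0.00127) and gave 0.08 ± 0.11 at 24 h (adjusted p = 0.54).

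DNAJB2, a J protein that hands ubiquitinated clients to the proteasome, behaved otherwise. DNAJB2 read 2.54, 2.59 and 2.66 in vehicle, 2.65, 2.65 and 3.00 at 90 min, 3.59, 2.70 and 2.75 at 4 h and 5.49, 5.48 and 5.51 at 24 h. The 24 h arrays alone rose above low signal, and they lie close together. The fitted difference of 2.90 ± 0.19 (adjusted p = 1.16e-07) starts from a level under 4, so its size is not exact. It rests on 1 probe set. DNAJA2, another cytosolic J protein, changed by −0.35 ± 0.11 at 4 h and −0.61 ± 0.11 at 24 h (adjusted p = 0.0342 and 0.000652), and a second DNAJA2 probe set was not called at either time. The 4 h call ended under 6 alternatives, among them without 4 h replicate 2 (adjusted p = 0.0820). DNAJB4 was not called in any comparison (−0.25 ± 0.15 at 24 h, adjusted p = 0.18).

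**Figure D4:**
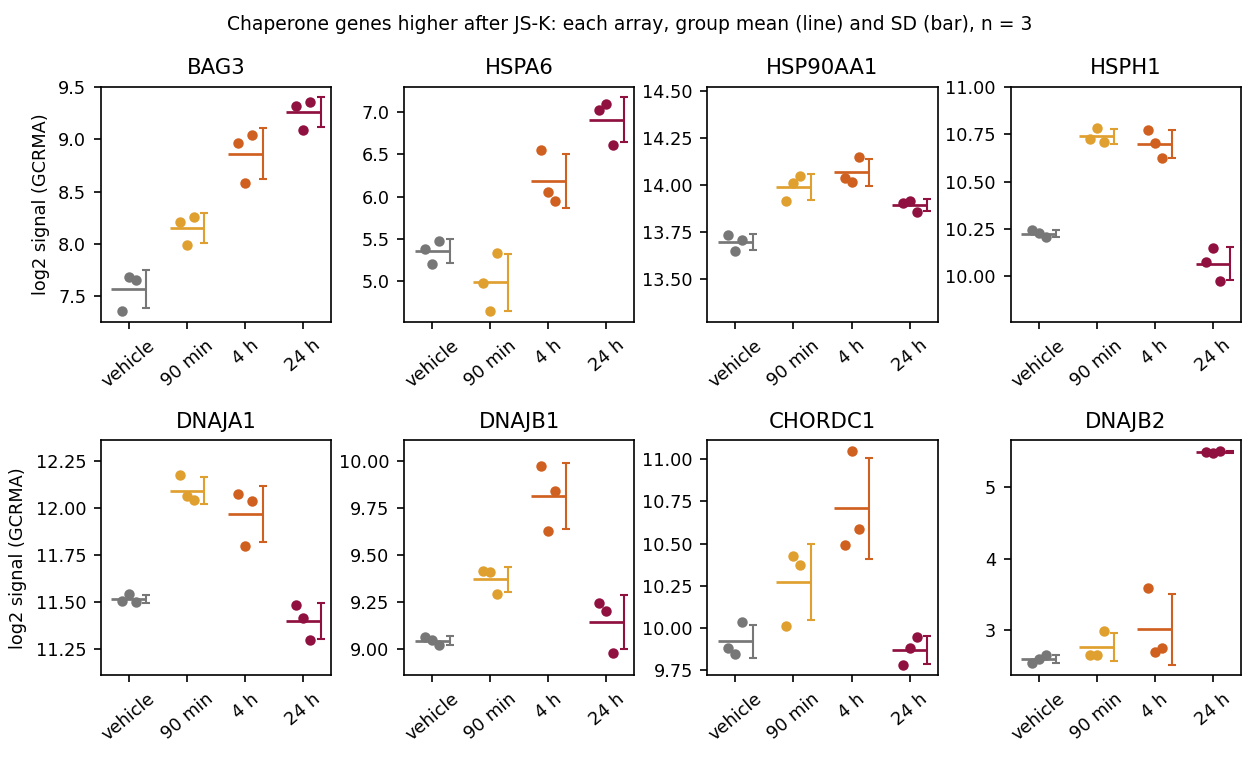
Log2 signal (vertical axis) on each of 3 arrays of the vehicle group and of each JS-K time, in 8 genes that were higher at 1 or more times, with group means (lines) and SD (bars). The vertical axes differ between genes and do not start at 0. BAG3 and HSPA6 are highest at 24 h, while HSPH1, DNAJA1, DNAJB1 and CHORDC1 at 24 h lie near the vehicle level.

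No small heat shock protein gene passed a test at any time. HSPB1, which encodes HSP27, was bright throughout (12.07 to 12.59 over the 12 arrays), with −0.14 ± 0.10, −0.09 ± 0.10 and 0.06 ± 0.10 at 90 min, 4 h and 24 h (adjusted p = 0.615, 0.471 and 0.581). Its 95% interval at 24 h was −0.15 to 0.28. HSPB8 (2.43 to 2.78) and CRYAB, alpha-B crystallin (2.07 to 2.17), lay under 4 on every array, as did SERPINH1 (2.23 to 2.31), the collagen chaperone. Changes of these 3 were not measurable at such levels.

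The BAG proteins bind HSP70 through a shared domain and release its client. BAG3, which couples HSP70 to selective autophagy and to HSPB8, had the largest rise of the 38 at 4 h, and at 90 min a rise close to that of DNAJA1. BAG3 read 7.36, 7.69 and 7.66 in vehicle, 8.21, 7.99 and 8.26 at 90 min, 8.96, 8.58 and 9.04 at 4 h and 9.32, 9.09 and 9.36 at 24 h. The groups do not overlap with vehicle at any time, and levels are higher at each later time, though the difference of 24 h cells from 4 h cells did not pass (0.39 ± 0.14, adjusted p = 0.0584). Against vehicle BAG3 rose by 0.59 ± 0.14, 1.29 ± 0.14 and 1.69 ± 0.14 (adjusted p = 0.0171, 3.08e-05 and 7.38e-07), or 2.45-fold at 4 h and 3.22-fold at 24 h. Its 90 min call was lost when vehicle array 1 (adjusted p = 0.0719), 90 min array 1 (0.0626) or 90 min array 3 (0.0763) was left out, and with array medians subtracted (0.0908). BAG3 lies on chromosome 10 at 119651380 to 119677819.

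The other BAG genes did not rise against vehicle. BAG2, an inhibitor of the ligase CHIP, changed by −1.26 ± 0.16 at 24 h (adjusted p = 3.72e-05). BAG1, an exchange factor that also binds the proteasome, gave −0.40 ± 0.14 at 4 h and −0.76 ± 0.14 at 24 h (adjusted p = 0.0474 and 0.00105). The 4 h call of BAG1 ended in 5 other alternatives and without any 1 of 10 arrays, among them 4 h replicate 2 (difference −0.21, adjusted p = 0.131). BAG4, which silences a death receptor, was lower at 4 h (−0.40 ± 0.08) and 24 h (−0.32 ± 0.08), and the 24 h value was not called with the mean of its probe sets (adjusted p = 0.0584). BAG5 was lower at 4 h alone (−0.62 ± 0.12, adjusted p = 0.00219) and gave −0.18 ± 0.12 at 24 h (adjusted p = 0.203). A dimmer BAG5 probe set, at a mean level of 7.60, was not called at 4 h (−0.23, adjusted p = 0.362). Another was called lower there (−0.88), but at low signal (mean level 2.71).

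Cochaperones of HSP90 and HSP70 made up the next group of 9, of which 1 rose and 1 fell at 90 min, 1 rose and 3 fell at 4 h, and 7 fell at 24 h. The lower shares of this group were thus 11.1%, 33.3% and 77.8%, where 10.5%, 32.4% and 37.1% of genes with a mean level of at least 4 were lower, so the first and second are near the background. STUB1 encodes CHIP, the ubiquitin ligase that marks chaperone clients for destruction. STUB1 read 11.87, 12.11 and 12.08 in vehicle, 11.68, 11.54 and 11.48 at 90 min, 11.53, 11.03 and 11.35 at 4 h and 11.18, 11.17 and 10.96 at 24 h. All JS-K arrays lay below all vehicle arrays. It fell at each time, with −0.45 ± 0.12 at 90 min, −0.72 ± 0.12 at 4 h and −0.92 ± 0.12 at 24 h (adjusted p = 0.0271, 0.00068 and 3.48e-05). The dimmer STUB1 probe sets gave −0.38 and −0.40 at 90 min and were not called there (adjusted p = 0.0744 and 0.105). The 90 min call, the sole fall among the 38 at that time, was lost when vehicle array 2 (adjusted p = 0.102) or 3 (0.102) or 90 min array 2 (0.0924) or 3 (0.109) was left out, and with array medians subtracted (0.116).

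CHORDC1, a zinc-binding partner of HSP90, rose at 4 h. CHORDC1 read 9.88, 9.85 and 10.03 in vehicle, 10.01, 10.43 and 10.37 at 90 min, 10.49, 11.05 and 10.59 at 4 h and 9.78, 9.88 and 9.95 at 24 h. The 4 h arrays stood above the vehicle arrays, most of all replicate 2, and the 24 h arrays overlapped with vehicle. The differences were 0.35 ± 0.14, 0.79 ± 0.14 and −0.05 ± 0.14 (adjusted p = 0.179, 0.00138 and 0.762). STIP1, which bridges HSP70 and HSP90, rose at 90 min (0.37 ± 0.08, adjusted p = 0.011) and gave 0.12 ± 0.08 at 4 h (adjusted p = 0.228). Its call ended without vehicle replicate 2 (adjusted p = 0.0502) or with array medians subtracted (0.0863). A second STIP1 probe set gave 0.27 at 90 min and was not called (adjusted p = 0.0578).

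The immunophilins FKBP4 and FKBP5, HSP90 partners of steroid receptors, fell the most of this group at 24 h, with −1.74 ± 0.12 and −1.45 ± 0.08 (adjusted p = 2.02e-07 and 1.59e-08). FKBP5 read 11.45, 11.45 and 11.48 at 24 h, against 13.01, 12.87 and 12.86 in vehicle, and its 3 probe sets all fell. FKBP4 gave −0.40 ± 0.12 at 4 h (adjusted p = 0.0312), a call that ended without any 1 vehicle array or without 4 h replicate 2 (adjusted p = 0.0554 to 0.0928). At 24 h smaller falls were seen in CACYBP, a partner of ubiquitin ligases (−0.59 ± 0.06), ST13, a stabilizer of HSP70 (−0.57 ± 0.07), CDC37, which brings kinases to HSP90 (−0.39 ± 0.10), and PTGES3, the p23 cochaperone (−0.24 ± 0.04). At 4 h a dimmer CACYBP probe set was called higher (0.21) and another lower (−0.22), and no direction is drawn there.

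Later times were also set against earlier ones. Cells at 4 h set against 90 min had 3 of 38 members higher and 11 lower (7.89% and 28.9%). Among all genes 3.33% and 7.25% were. Of the 34 members with a mean level of at least 4, 8.82% were higher and 32.4% lower. Among such genes 6.42% and 14.7% were, so the higher share was near the background. The 3 higher members were HSPA6 (1.20 ± 0.21, adjusted p = 0.0032), BAG3 (0.71 ± 0.14, adjusted p = 0.00533) and DNAJB1 (0.44 ± 0.10, adjusted p = 0.00965). With array medians subtracted HSPA6 alone of these stayed called, a second HSPA6 probe set was not called (0.75), and the DNAJB1 call also ended without 90 min replicate 3 (0.0504). Cells at 24 h set against 4 h had 3 higher and 22 lower (7.89% and 57.9%), where 12.8% and 10.7% of all genes were. With a mean level of at least 4 it was 5.88% and 64.7% of members, and 24.7% and 21.8% of genes. The 3 higher members were DNAJB2 (2.48 ± 0.19), HSPA6 (0.72 ± 0.21) and BAG5 (0.44 ± 0.12). The HSPA6 call ended without 4 h replicate 2 (adjusted p = 0.0738) or 3 (0.110) or 24 h replicate 1 (0.0878) or 2 (0.103). The BAG5 call ended with the mean of its probe sets (difference 0.15, adjusted p = 0.751), with array medians subtracted (0.0706), and without 4 h replicate 2 (0.0603) or 24 h replicate 1 (0.0665). Among the 22 were HSPH1, DNAJA1 (−0.57 ± 0.08), DNAJB1 (−0.67 ± 0.10), DNAJB6 (−0.53 ± 0.11) and CHORDC1 (−0.84 ± 0.14), the last with an adjusted p of 0.000642. Set against 90 min, the 24 h cells had 4 higher and 24 lower (10.5% and 63.2%), where 14.6% and 15.7% of all genes were. With a mean level of at least 4 it was 8.82% and 70.6% of members, and 26.1% and 31.6% of genes. The 4 higher members were DNAJB2 (2.73 ± 0.19), HSPA6 (1.92 ± 0.21), BAG3 (1.10 ± 0.14) and HSPA13 (0.36 ± 0.12), and the HSPA13 call ended under 11 alternatives.

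Sequence upstream of the genes was read from the RefSeq promoter table (GRCh38.p14), which gives 250 bases before and 50 after each listed start. Windows were found for 31 of the 38 genes. A pair of heat shock units, GAANNTTC or TTCNNGAA, stood in a window of 16 of the 31 (51.6%), and in 15.01% of the 15384 measured genes with a window. These letters read the same on both strands. A run of 3 units, GAANNTTCNNGAA or its reverse complement TTCNNGAANNTTC, stood in 8 of the 31 (25.8%), and in 89 of the 15384 (0.579%). The 8 were HSPA6, HSP90AA1, HSP90AB1, HSPD1, DNAJA1, DNAJB6, CHORDC1 and SERPINH1. Each longer match holds shorter ones. A match of letters is a description and not a binding site.

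Stretches of up to 63 bases that hold a match are shown for 7 genes whose time courses differ, 5′ to 3′ on the gene's strand, with the matched letters in capitals. The start base is counted as 0. HSPA6 (chr1:161524446-161524498, plus strand, match from base −74), HSP90AA1 (chr14:102087112-102087140, minus strand, from −88), CHORDC1 (chr11:90223067-90223129, minus strand, from −60) and DNAJB6 (chr7:157336853-157336905, plus strand, from −131) rose at 4 h, as did DNAJB1 (chr19:14518456-14518485, minus strand, from −77), which has pairs of units only. HSP90AB1 (chr6:44247770-44247798, plus strand, from −165) and HSPD1 (chr2:197500062-197500090, minus strand, from −245) fell at 24 h. The starts used for HSP90AA1, HSP90AB1, HSPD1 and DNAJB1 are listed starts inside the gene's full span, and for these no more than 30 bases are shown.
HSPA6: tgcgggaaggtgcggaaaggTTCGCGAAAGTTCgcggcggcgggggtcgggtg
HSP90AA1: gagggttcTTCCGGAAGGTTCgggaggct
CHORDC1: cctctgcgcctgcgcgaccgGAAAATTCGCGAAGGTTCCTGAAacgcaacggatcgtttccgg
DNAJB6: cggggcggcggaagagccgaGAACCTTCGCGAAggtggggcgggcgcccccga
DNAJB1: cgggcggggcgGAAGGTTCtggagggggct
HSP90AB1: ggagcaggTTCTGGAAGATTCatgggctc
HSPD1: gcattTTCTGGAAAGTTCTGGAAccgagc
CHORDC1 holds overlapping matches without a break, as HSPD1 does. HSP90AB1 and DNAJB1 each have a second match downstream that is not shown.

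**Figure D5:**
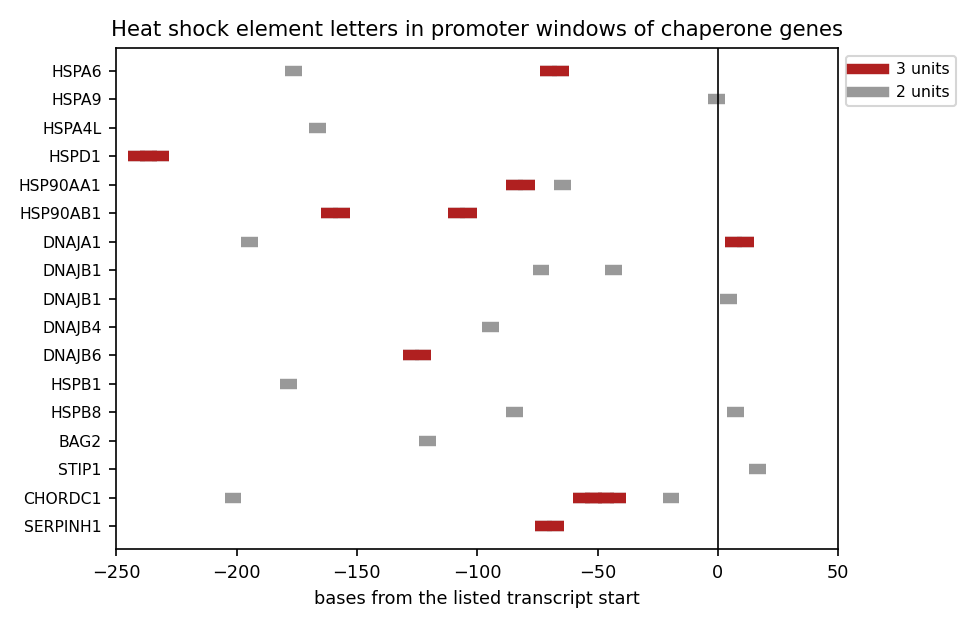
Position of heat shock element letters in promoter windows of measured chaperone genes, in bases from the listed transcript start (horizontal axis, start at 0). Each row is 1 window that holds a match, red for 3 units and grey for 2. The run of CHORDC1 begins at −60 and that of HSPA6 at −74.

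Members with and without the letters were found on both sides of the 4 h comparison. Of the 8 members with 3 units, 5 were higher at 4 h (HSPA6, HSP90AA1, DNAJA1, DNAJB6 and CHORDC1) and HSP90AB1 was lower, with a median difference of 0.41. Of the 23 members with a window but no such run, 4 (17.4%) were higher (BAG3, HSPH1, HSPA13 and DNAJB1) and 7 (30.4%) lower, with a median of −0.09. Of all 15384 genes with a window 23.1% were higher and 17.8% lower. Of the 7952 with a mean level of at least 4, 14.6% were higher and 32.6% lower, and the shares of the 23 were near these. Outside the 38 members, 33 genes with 3 units had such a mean, and 4 of them (12.1%) were higher at 4 h and 7 (21.2%) lower. BAG3 and HSPH1 had no pair of units in their windows, which says nothing of sequence outside them.

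Of 69 further genes of chaperones and cochaperones, 64 were measured. At 90 min 2 rose and 4 fell, at 4 h 8 rose and 24 fell, and at 24 h 6 rose and 29 fell, with medians of −0.01, −0.21 and −0.22. That is 3.12% higher and 6.25% lower at 90 min, where 4.03% and 5.62% of all genes were. Of genes with a mean level of at least 4, 8.05% and 10.5% were. At 4 h it is 12.5% and 37.5%, beside 23.9% and 16.6% of all genes and 14.7% and 32.4% of the brighter ones. At 24 h it is 9.38% and 45.3%, beside 17.8% and 18.9% of all genes and 25.9% and 37.1% of the brighter ones. The 64 were not filtered by level, so how near they lie to the background depends on the set used. Of the rises, HSPB3 and HSPB7 at 4 h and HSPB7 and HSPA12B at 24 h lay under 4 in both groups, where changes are not measurable. These genes were singled out after their values were seen. The largest rise at 24 h was that of HSPA2, an HSP70 best known from sperm development (2.39 ± 0.24), which also rose the most at 4 h (1.10 ± 0.24), ahead of the J protein gene DNAJA4 (0.58 ± 0.15). DNAJB12, a J protein of the endoplasmic reticulum membrane, rose by 0.81 ± 0.14 at 90 min, 0.53 ± 0.14 at 4 h and 0.84 ± 0.14 at 24 h. DNAJC5, the cysteine string protein, rose by 0.54 ± 0.13, 0.38 ± 0.13 and 0.77 ± 0.13 at the same times. SGTA, a cochaperone of tail-anchored proteins, rose by 0.41 ± 0.12 at 24 h.

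On the other side, CLPB, a disaggregase of mitochondria, fell at each time. It gave −0.84 ± 0.08 at 90 min, −0.90 ± 0.08 at 4 h and −1.25 ± 0.08 at 24 h. DNAJC12 gave −0.82 ± 0.17 at 90 min, −0.65 ± 0.17 at 4 h and −2.21 ± 0.17 at 24 h, there to a level under 4 (3.93). DNAJC19, of the mitochondrial import motor, and PIH1D1, of the R2TP complex that works with HSP90, fell at 90 min (−0.49 ± 0.11 and −0.34 ± 0.09). Both were also called lower at 4 h (−0.60 and −0.44) and at 24 h (−0.52 and −0.54). CDC37L1 (−1.22 ± 0.29), DNAJC30 (−0.99 ± 0.33), DNAJC17 (−0.97 ± 0.17) and DNAJC14 (−0.95 ± 0.13) had the largest falls at 4 h. RUVBL1, an ATPase of R2TP, fell at 24 h (−1.63 ± 0.09), as did GRPEL2, an exchange factor for HSPA9 (−1.43 ± 0.10), and DNAJC11, of the mitochondrial membrane (−1.37 ± 0.16).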

How the data were processed

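RNA from U937 cells was measured on 12 arrays, 3 in each of the 4 groups. The deposited values are on the log2 scale, 1 per probe set and array, made by the authors with tools named as GCRMA and Affymetrix Expression Console, per the submitters' processing notes. Versions are not given in the sources used here. Per the labels' protocols, labelling started at random hexamers along the whole transcript, while the probe set names are those of an array read at 3′ ends. GCRMA corrects background and normalizes by quantiles. Differences at low signal are compressed.

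No further normalization was applied. Of 54675 probe sets, 41097 had 1 gene symbol, 1801 several and 11777 none (platform annotation, 41043 matched to RefSeq by gene identifier). The brightest probe set stood for a gene, giving 19775 genes. The R 4.3.3 package limma 3.58.1, with eBayes and a trend on the mean level, fitted the 4 groups over all genes, with Benjamini-Hochberg adjustment per comparison. There were 8 residual and 3.97 prior degrees of freedom. On simulated data of 19775 genes for 4 h against vehicle, the fit called 89 of 100 genes with a 2-fold change, 50 of 100 with a 1.5-fold one, and 6 of 145 calls in all were false. Only these genes changed there, all with a mean level above 4, and the noise was independent between arrays. In the data 23.9% of all genes were called higher and 16.6% lower at 4 h, and spikes differed between groups. These rates therefore need not hold for the data.

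The members and lists were chosen with earlier results of these data known. All members were accounted for. Array values were given for 9 fixed members and for the 3 largest called rises and falls against vehicle at each time whose arrays did not overlap, and 4 further chaperone genes per direction were named by size. The labels do not say what a replicate number marks. Deviations of same-numbered arrays correlated at 0.13 to 0.23 in all 3 pairs of 90 min with vehicle. In the other 15 pairs they correlated at −0.13 to 0.37, over 0.1 in 4. The highest were 90 min with 4 h, replicates 2 (0.37) and 3 (0.30). Whether same-numbered arrays are paired is thus not known. The fit as designed has no replicate block, and the block was run as an alternative. The p-values reflect spread among these samples only, and the number of arrays limits the precision. Alternatives were other scalings, probe set rules, filters on low signal, a constant spread, a replicate block, the 6 arrays of a comparison alone, and leaving out each array. Figures were drawn with matplotlib 3.10.9.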

Additional observations from a re-analysis of the deposited data

Results flagged for a closer look

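In 3 genes the JS-K arrays of an early time all lay above the vehicle arrays and those of 24 h all below them, and the difference between the times passed the test. Arrays did not overlap with vehicle for 26.9% of all genes at 90 min, 70.2% at 4 h and 82.3% at 24 h. The share of all genes with such a switch was not counted, so the number 3 is not read as a result. HSPH1 at 24 h differed by −0.68 from 90 min and by −0.64 from 4 h. DNAJA1 differed by −0.69 and −0.57 in the same comparisons. HSPE1 at 24 h differed by −1.16 from 90 min. For HSPH1 and DNAJA1 the 24 h cells did not pass the test against vehicle itself (adjusted p = 0.0603 and 0.195), and HSPE1 did not pass at 90 min (adjusted p = 0.0519).

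Signal was also seen in control probe sets that no comparison uses. Poly-A spikes averaged 7.02 at 4 h and 8.47 at 24 h, against 3.04 in vehicle. Their part in the chaperone results was not tested.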

How the results depend on the processing

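The 38 genes gave 119 calls over the 6 comparisons, and 116 of them have a value under all 9 alternatives and with each of the 12 arrays left out. Of the 116, 86 held throughout. The 3 calls of DNAJB2 held too, but DNAJB2, averaging under 4, drops out of the filtered fit. Among all 119, 0 changed direction. Counts of members higher and lower stayed within 1.5 times the reported ones except as follows, and the cause was not tested. At 90 min against vehicle (5 higher, 1 lower), quantile normalization gave 8 and 2, subtraction of array medians 2 and 0, and the 6 arrays alone 2 lower. At 24 h against vehicle (5 higher), subtraction of medians gave 3 and the 6 arrays alone 9. At 4 h against 90 min (3 higher, 11 lower), genes with a mean of at least 4 gave 5 higher, subtraction of medians 1 higher and the 6 arrays alone 5 lower. With 1 array left out, higher and lower members ranged over 4 to 7 and 0 to 1 at 90 min, 7 to 12 and 8 to 13 at 4 h and 5 to 8 and 20 to 21 at 24 h against vehicle. Between times the ranges were 2 to 5 and 4 to 12 at 4 h against 90 min, 1 to 4 and 20 to 25 at 24 h against 4 h, and 3 to 7 and 22 to 25 at 24 h against 90 min. Without 4 h replicate 2 there were 8 higher members at 24 h against vehicle, 7 at 24 h against 90 min, 1 at 24 h against 4 h (also without 24 h replicate 1), and 6 lower at 4 h against 90 min. The last count was 6 without 90 min replicate 1 or 2 and 4 without replicate 3. Without 4 h replicate 1, 5 members were higher at 4 h against 90 min, and 0 were lower at 90 min when vehicle array 2 or 3, or 90 min array 2 or 3, was dropped. With the replicate number as a block the counts against vehicle were 6 higher and 1 lower at 90 min, 10 and 12 at 4 h and 5 and 21 at 24 h. The gene gained at 90 min was DNAJB1 (adjusted p = 0.0426), whose second probe set gave a difference of 0.09 there. At 90 min the block changed no other call. The other gains against vehicle were CRYAB at 4 h (0.0360, at low signal) and HSPH1 at 24 h (0.0422, lower). Intensity files were not analysed here, so other background corrections were not run. Low signal limits HSPB8, CRYAB, SERPINH1 and DNAJB2.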
